A study of Mus musculus with 21 samples.

Results

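The genes described here are 30 genes of cholesterol and fatty acid synthesis, measured by mRNA sequencing in mouse embryonic stem cells. They were chosen by symbol, with earlier results of these data known, and comprised 18 enzymes of cholesterol synthesis, 6 regulators or carriers of sterols and 6 enzymes of fatty acid synthesis. All 30 were found among the 31053 gene IDs of the count tables, and all 30 passed the filter on low counts that left 10643 genes. The cells were E14Tg2a, an embryonic stem cell line from a male mouse of 129 background, with a destabilised green fluorescent protein inserted into 1 allele of Rex1 (Zfp42), and the study concerned ways of keeping such cells pluripotent in culture.

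The 21 libraries fell into 7 groups of 3. All groups shared the same description of culture: NDiff227 base medium with the GSK3 inhibitor CHIR99021 at 3 µM and the MEK inhibitor PD0325901 at 1 µM for 1 week, then passages at which CH, PD and LIF (leukaemia inhibitory factor, a cytokine that sustains self-renewal) were alternately given and taken away. Groups were named 2i+LIF PO, 2i+LIF LP, CH+LIF LP, LIF LP, 2i+LIF HP, CH+LIF HP and LIF HP, where 2i stands for both inhibitors together. The design names zero passage, 1 month and 2 months, but the labels do not spell out PO, LP or HP, so LP and HP are used as names with no length of culture attached. PO occurred only in 2i+LIF. All libraries came from 1 line, and nothing in the labels says that replicates were separate cultures, so p-values measure only the spread between these libraries, which may be technical.

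Cholesterol is built from acetyl-CoA through mevalonate, farnesyl diphosphate, squalene and lanosterol, and the last enzymes turn lanosterol into cholesterol. Transcription of most of these enzymes is driven by SREBP-2 (gene Srebf2), while SREBP-1 (Srebf1) acts mainly on fatty acid synthesis. When membranes hold enough sterol, the Insig proteins keep SCAP and the SREBPs in the endoplasmic reticulum, and the genes are transcribed less. Dividing stem cells in medium with little lipid depend on this synthesis for new membrane.

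Gene counts per library ranged from 1132126 to 3783043 with a median of 1763531, and the 30 genes took 0.13 to 0.406% of them. Markers of embryonic stem cells were present throughout: the summed level of Pou5f1, Nanog, Zfp42, Esrrb, Tfcp2l1, Klf4, Dppa4 and Tdgf1 lay between 971 and 3111 CPM (read counts scaled to a common library size), and none of the 8 was at 0 in a whole group. Summed markers of primitive endoderm (5 genes) reached at most 9.58 CPM, of fibroblast feeders (5 genes) 36.4 CPM, and of lipid-handling liver or gut cells (4 genes) 1.86 CPM, whereas 4 neural markers ranged from 34.5 to 253 CPM. There were 2 libraries that stood apart. In 2i+LIF PO replicate 1, 39.1% of gene counts were mitochondrial, against at most 9.84% in any other library, and in 2i+LIF LP replicate 1, 31.7% came from the single locus Gm42418, against at most 10.9% elsewhere. The effect of leaving them out is given beside the main calls.

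RefSeq promoter windows of build GRCm38.p6, from 250 bases before a transcript start to 50 after, were found for 24 of the 30 genes (not for Fdps, Fdft1, Sqle, Stard4, Scd1 and Scd2). Stretches before the start are shown for Hmgcs1, the gene of HMG-CoA synthase, and for 4 genes on which the comparisons turn. The letters run 5′ to 3′ on the gene's own strand, each ends just before the start except that of Cyp51, which ends 50 bases before it and so leaves out its CCAAT box, and capitals mark the CCAAT box (CCAAT, or ATTGG where it lies on the other strand) and the core of the sterol regulatory element.
Hmgcs1 chr13:119690171-119690350 (+): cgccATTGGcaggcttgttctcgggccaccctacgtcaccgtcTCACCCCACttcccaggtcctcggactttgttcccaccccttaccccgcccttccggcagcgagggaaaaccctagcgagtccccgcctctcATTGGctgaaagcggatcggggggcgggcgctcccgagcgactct
Mvd chr8:122443423-122443602 (-): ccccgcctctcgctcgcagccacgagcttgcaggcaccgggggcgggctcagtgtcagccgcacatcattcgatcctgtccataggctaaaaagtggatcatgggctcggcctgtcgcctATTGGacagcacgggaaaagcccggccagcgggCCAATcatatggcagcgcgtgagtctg
Pmvk chr3:89454361-89454540 (+): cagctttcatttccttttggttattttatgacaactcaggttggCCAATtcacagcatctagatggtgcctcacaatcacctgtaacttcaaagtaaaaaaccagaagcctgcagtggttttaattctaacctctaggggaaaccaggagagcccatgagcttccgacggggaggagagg
Cyp51 chr5:4104747-4104877 (-): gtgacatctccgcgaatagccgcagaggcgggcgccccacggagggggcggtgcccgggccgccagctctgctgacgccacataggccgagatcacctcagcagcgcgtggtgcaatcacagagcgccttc
Ebp chrX:8193513-8193692 (-): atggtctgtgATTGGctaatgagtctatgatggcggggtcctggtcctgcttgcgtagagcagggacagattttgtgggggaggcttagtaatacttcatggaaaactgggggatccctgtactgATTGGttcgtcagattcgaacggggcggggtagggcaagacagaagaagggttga
The sterol regulatory element core TCACNCCAC, to which SREBPs bind, was found on either strand in the window of 1 of the 24 genes, Hmgcs1 (4.17%), against 1.33% of the 8435 tested genes with a window and 1.44% of all 27025 genes with one. The CCAAT box, bound by NF-Y, a partner of SREBPs, was in the windows of 20 of the 24 genes (83.3%), against 43.7% of tested genes with a window. The GC box GGGCGG, bound by Sp1, was also in 20 of 24 (83.3%), against 71.4% of tested genes, and the E-box CACGTG in 5 of 24 (20.8%), against 12.4%. No motif contains another. A match describes the letters only.

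Against 2i+LIF PO, 3 of the 5 enzymes that turn mevalonate into farnesyl diphosphate (Pmvk, Mvd and Fdps) and 5 of the 8 enzymes after lanosterol were called higher in at least 1 LP or HP group (all genes 14.4%). A gene is called here when edgeR's quasi-likelihood test gave a Benjamini-Hochberg adjusted p under 0.05 over all 10643 genes. In 2i+LIF LP 3 of the 30 genes were called (all genes 5.06%), in CH+LIF LP 5 (all genes 8.31%), in LIF LP 4 (all genes 12.0%), in 2i+LIF HP 4 (all genes 10.6%), in CH+LIF HP 4 (all genes 5.82%) and in LIF HP 6 (all genes 12.3%). As shares of 30, these are 10%, 16.7%, 13.3%, 13.3%, 13.3% and 20%. All 26 calls were higher than PO and none was lower, where the share of all genes called higher was 2.79%, 4.24%, 5.84%, 5.8%, 3.36% and 7.1% in the same order. They came from 9 genes (30% of the 30; all genes called higher in at least 1 of the 6 comparisons, 14.4%), 8 of cholesterol synthesis and Fasn. Without both libraries that stood apart, the counts in the same order were 5, 6, 7, 6, 7 and 7 of 30 (all genes 9.89%, 13.1%, 20.8%, 19.6%, 11.8% and 12.7%). Calls lower than PO then appeared too, for Fdft1, Tm7sf2 and Hmgcs1. Single libraries moved the counts of the 30 genes and of all genes. Without PO replicate 1 they were 2, 4, 3, 4, 4 and 4 (all genes 11.0%, 6.97%, 13.5%, 11.6%, 5.89% and 5.86%), and without PO replicate 2 they were 1, 3, 3, 2, 2 and 6 (all genes 1.71%, 5.82%, 7.5%, 6.97%, 3.71% and 12.8%). Leaving out PO replicate 3 gave 3, 4, 3, 4, 3 and 4 (all genes 2.09%, 5.64%, 7.76%, 6.57%, 3.16% and 9.04%), and leaving out 2i+LIF LP replicate 1 gave 3, 9, 7, 6, 7 and 6 (all genes 5.24%, 12.7%, 16.8%, 15.5%, 9.90% and 17.3%). CH+LIF LP gave 2 without its replicate 1 (all genes 3.46%), and LIF LP gave 2 without its replicate 2 (all genes 5.17%). At HP, 2i+LIF gave 2 without its replicate 3 (all genes 3.30%), CH+LIF gave 2 without its replicate 2 or 3 (all genes 1.85% and 2.96%) and LIF gave 4 without its replicate 2 or 3 (all genes 3.84% and 5.09%). The 6 comparisons share their 3 PO libraries, so they are not independent of each other. By their file names, PO libraries also carry a run label that no LP or HP library has, so PO and run cannot be told apart.

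**Figure D1:**
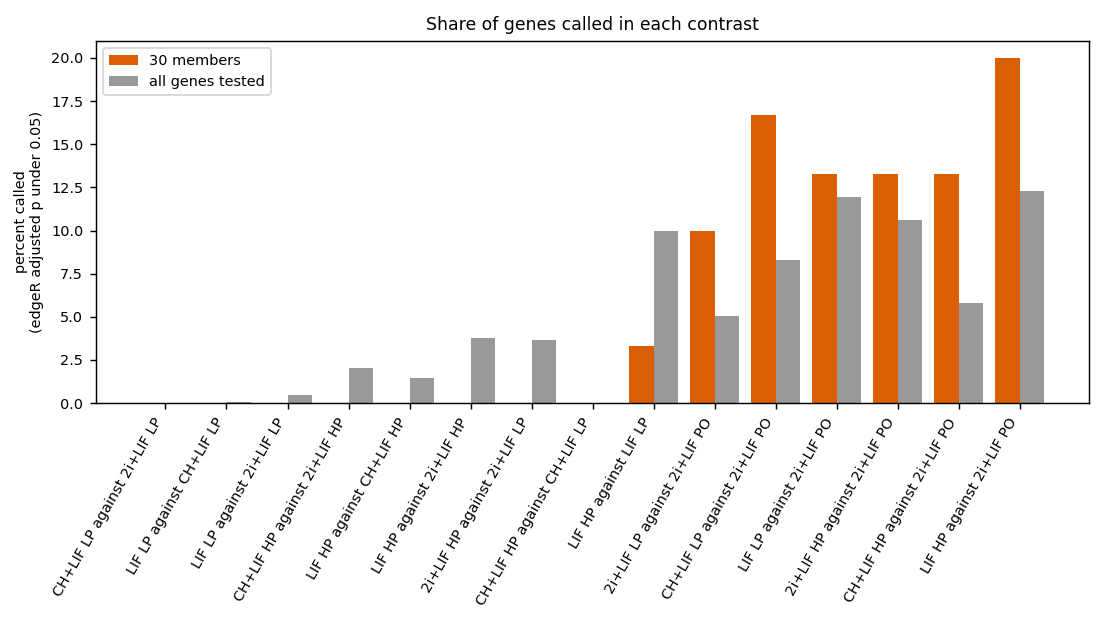
Percent of genes called (y axis; edgeR adjusted p under 0.05, both directions together) in each of 15 comparisons (x axis), for the 30 cholesterol and fatty acid genes (orange bars) and all 10643 genes tested (grey bars). Among comparisons of media, or of HP against LP, an orange bar is seen in LIF HP against LIF LP alone (1 gene); against 2i+LIF PO the orange bars stand between 10 and 20%.

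Mvd, mevalonate diphosphate decarboxylase, which makes isopentenyl diphosphate, had the widest separation. Its level was 60.1, 58.6 and 42.9 CPM in the PO libraries. In 2i+LIF LP it was 353, 144.2 and 168 CPM, and in CH+LIF LP 242, 159 and 120 CPM. Every one of the 18 LP and HP libraries lay above every PO library. In LIF LP the values were 188, 214 and 174 CPM, in 2i+LIF HP they were 216, 147.7 and 263 CPM, in CH+LIF HP 161, 128 and 182 CPM, and in LIF HP 244, 196 and 204 CPM. Mvd was the only gene of the 30 called in all 6 comparisons with PO, at 2.91 to 4.11-fold (log2 fold change 1.54 to 2.04, edgeR adjusted p 0.00116 to 0.013). These calls were kept in all 27 other settings but for 2i+LIF LP when only the groups compared were fitted, and CH+LIF HP without PO replicate 3 or CH+LIF HP replicate 3. The value of 353 CPM belonged to the library rich in Gm42418; without both libraries that stood apart, Mvd was still called in 2i+LIF LP at a log2 fold change of 1.62 (SE 0.35, edgeR adjusted p = 0.00487).

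Fdps, farnesyl diphosphate synthase, was at 31.6, 32.9 and 59.8 CPM in PO and between 71.9 and 157.1 CPM in the 18 other libraries. Its highest group mean was 146.1 ± 5.69 CPM (SD, n = 3) in LIF HP and the lowest outside PO 85.8 ± 17.6 CPM (SD, n = 3) in 2i+LIF LP. Fdps was called in 5 of the 6 comparisons, at 2.36 to 3.51-fold, and missed in 2i+LIF LP (log2 fold change 1.04 with an SE of 0.32, edgeR adjusted p = 0.0544). The call in LIF HP was kept in all 27 other settings, and the other 4 were lost when only the groups compared were fitted. Those in CH+LIF LP, LIF LP and CH+LIF HP were also lost without PO replicate 2, that in CH+LIF LP without PO replicate 1 or CH+LIF LP replicate 1, and that in CH+LIF HP without CH+LIF HP replicate 3. Mvd and Fdps were the only 2 of the 30 genes for which all 18 LP and HP libraries lay above all PO libraries (6.67%; all genes 1.68%). Of Fdps's sequence, 26.2% of 50-base words also occur in other genes, chiefly in the readthrough model Gm43738 on the same strand, which had 0 counts. Reads in those words could be lost to either gene.

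Pmvk, phosphomevalonate kinase, acts just before Mvd. In PO its values were 4.22, 38.7 and 41.6 CPM, and the lowest one belonged to the library with 39.1% mitochondrial counts. Of the 18 other libraries 17 lay above all PO libraries. Pmvk was called in CH+LIF LP (126, 92.6 and 108 CPM), LIF LP (88.7, 105 and 102 CPM) and LIF HP (110, 126 and 156.6 CPM), where the log2 fold changes were 1.92, 1.77 and 2.18. Without both libraries that stood apart these became 1.42, 1.29 and 1.69, and all 3 were still called (edgeR adjusted p 0.00324, 0.00396 and 0.00104). Fitting only the groups compared lost all 3 calls (edgeR adjusted p 0.0769, 0.094 and 0.0503). That in CH+LIF LP was also lost without CH+LIF LP replicate 1, and that in LIF LP without LIF LP replicate 2. The first kinase of this stretch, Mvk, ranged from 5.59 to 36.9 CPM with PO at 8.97, 24.8 and 34.9 CPM, and its PO libraries overlapped with those of all 6 groups. Idi1, the isomerase between Mvd and Fdps, had only 117 counts over 21 libraries and lay between 0 and 8.24 CPM. Over the 5 genes from Mvk to Fdps, the median log2 fold change against PO was 0.95 to 1.81 in the 6 groups, where the median of all genes was -0.10 to -0.05. This range was 0.48 (2i+LIF HP) to 1.64 (LIF HP) without both libraries that stood apart.

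**Figure D2:**
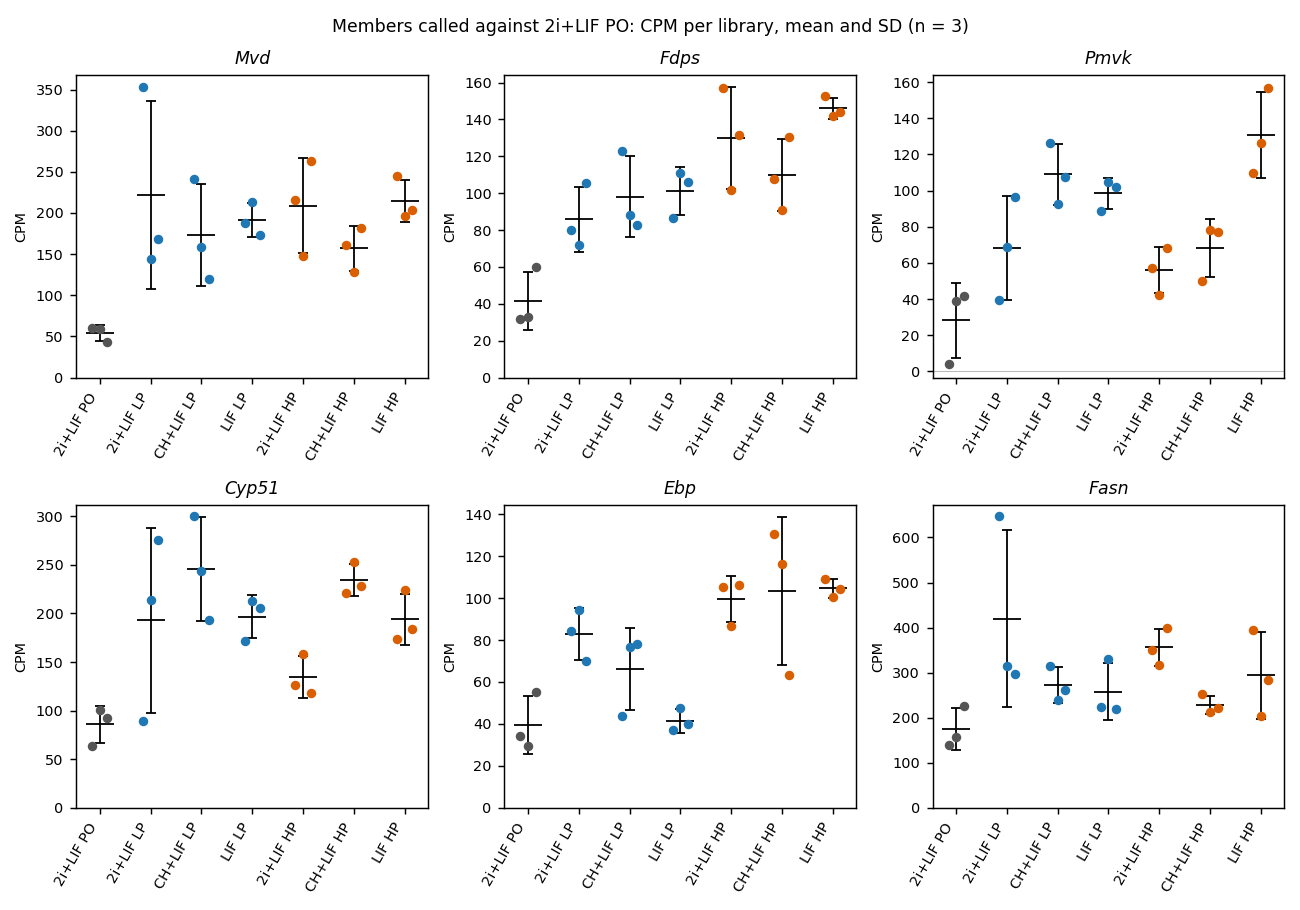
CPM (y axis, linear) of Mvd, Fdps, Pmvk, Cyp51, Ebp and Fasn in each library (points) of the 7 groups (x axis), with the mean and SD of 3 libraries as black bars; grey points are PO, blue LP and orange HP. The PO points of Mvd stay at 60.1 CPM or less and all other points of Mvd at 120 CPM or more, while Ebp in LIF LP (36.9 to 47.8 CPM) lies among the PO values.

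Before mevalonate, neither of the 2 enzymes in the set was called in any comparison with PO. Acat2, the thiolase that joins 2 acetyl-CoA, was at 76.5, 88.4 and 79.3 CPM in PO. All 3 libraries of 2i+LIF LP, CH+LIF LP, LIF LP and LIF HP were above that, and the largest log2 fold change was 0.87 in CH+LIF LP (SE 0.30, edgeR adjusted p = 0.0716). Of its 50-base words 39.1% are shared with Acat3, so its counts are uncertain. Hmgcs1, HMG-CoA synthase, ranged from 88.4 to 445 CPM. PO held 102, 445 and 310 CPM, and 2i+LIF LP 88.4, 253 and 309 CPM. The low library of each of these groups was the one that stood apart. Without both of them, Hmgcs1 was called lower in LIF HP (202, 220 and 190 CPM) than in PO, at a log2 fold change of -0.90 (SE 0.29, edgeR adjusted p = 0.0371).

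From squalene to lanosterol, none of Fdft1, Sqle and Lss was called. Fdft1, squalene synthase, was at 8.97, 52 and 48.4 CPM in PO and the 18 others at 4.21 to 45.6 CPM. With all libraries its log2 fold change was -1.42 in 2i+LIF HP (SE 0.54, edgeR adjusted p = 0.0931). Without both libraries that stood apart it was called lower than PO in 4 groups, by 1.85 on the log2 scale in 2i+LIF HP, and with log2 fold changes of -1.43 in CH+LIF HP, -1.26 in LIF LP and -1.13 in CH+LIF LP (edgeR adjusted p 0.00148, 0.014, 0.0182 and 0.0464). Fdft1 lies opposite Ctsb, which had 4969 counts against 1070 for Fdft1, and 26.5% of its 50-base words are shared, so reads of the pair may be mixed. Sqle, squalene epoxidase, was at 54.9, 77.4 and 77.5 CPM in PO and between 51.5 and 202 CPM elsewhere. Lss, which closes the sterol rings, stayed between 6.18 and 35.8 CPM.

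After lanosterol, 5 of 8 enzymes were called higher in at least 1 comparison with PO (all genes 14.4%): Cyp51, Ebp, Msmo1, Sc5d and Dhcr7. Cyp51, the lanosterol demethylase, was at 63.8, 101 and 92.5 CPM in PO and was called in 5 groups. Its highest group means were in CH+LIF LP (300, 243 and 194 CPM) and CH+LIF HP (221, 253 and 228 CPM), where it was 2.86 and 2.73-fold higher than PO. In 2i+LIF HP (126, 159 and 118 CPM) it was above PO in all 3 libraries but was not called. The call in 2i+LIF LP was the least stable of these 5: the values were 89.1, 214 and 276 CPM, the first from the library that stood apart, and 9 of 27 other settings kept the call. Of the other 4, that in CH+LIF LP was kept in 27, that in CH+LIF HP in 26 (lost without CH+LIF HP replicate 2), that in LIF LP in 23 and that in LIF HP in 21. Both of the latter were lost without PO replicate 1 or 3, or without replicate 2 or 3 of the group itself. In 2i+LIF LP without both libraries that stood apart its log2 fold change was 1.34 (SE 0.31, edgeR adjusted p = 0.00709). Cyp51, with 7068 counts, lies opposite Akap9, with 3083, and 2.77% of its 50-base words are shared with other genes.

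Ebp, the sterol isomerase, was at 34.3, 29.3 and 55.3 CPM in PO. It was called in the 3 HP groups and in no LP group, although 2i+LIF LP (84.2, 94.3 and 69.9 CPM) also lay wholly above PO (log2 fold change 1.06 with an SE of 0.33, edgeR adjusted p = 0.0612). The call in LIF HP was kept in all 27 other settings. That in 2i+LIF HP was lost in 3 (only the groups compared, without PO replicate 2 or 2i+LIF HP replicate 3), and that in CH+LIF HP in 4 (only the groups compared, without PO replicate 2, CH+LIF HP replicate 1 or CH+LIF HP replicate 2), with edgeR adjusted p up to 0.105 and 0.0966. The 3 HP means were close together at 99.5 ± 11.1, 103 ± 35.5 and 105 ± 4.45 CPM (SD, n = 3) in 2i+LIF, CH+LIF and LIF, and they were 2.50 to 2.63-fold higher than PO. Msmo1, the C4 methyl oxidase, was called in LIF HP alone (318, 490 and 458 CPM against 98.1, 236 and 179 CPM in PO; log2 fold change 1.30, edgeR adjusted p = 0.0248). The call was lost in 5 of 27 other settings: when only the groups compared were fitted, and without PO replicate 1 (log2 fold change 0.99, edgeR adjusted p = 0.111), PO replicate 3, LIF HP replicate 2 or LIF HP replicate 3. It was made without both libraries that stood apart (1.01, edgeR adjusted p = 0.0321). Sc5d, the C5 desaturase, was called in CH+LIF LP alone (115, 58.1 and 52.4 CPM against 30.6, 24.8 and 21.2 CPM), at a log2 fold change of 1.57. That call was lost without PO replicate 2, PO replicate 3, CH+LIF LP replicate 1 or CH+LIF LP replicate 2 (edgeR adjusted p up to 0.195). In LIF LP, at 77.1, 59.8 and 51.5 CPM, its log2 fold change was 1.30 (SE 0.45, edgeR adjusted p = 0.059). In the 9 direct comparisons between media or between HP and LP, neither Msmo1 nor Sc5d was called (lowest edgeR adjusted p 0.113 for Msmo1, LIF HP against 2i+LIF HP, and 0.624 for Sc5d).

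Dhcr7, a reductase of the last steps, was called in 2i+LIF HP (29.7, 55.1 and 34.5 CPM against 2.64, 14.4 and 16.2 CPM in PO). The call was lost in 5 of 27 other settings: when only the groups compared were fitted, and without PO replicate 1, PO replicate 2, 2i+LIF HP replicate 2 or 2i+LIF HP replicate 3 (edgeR adjusted p up to 0.136). Without PO replicate 1, which held the lowest value, its log2 fold change was 1.37 (edgeR adjusted p = 0.0857). It was 1.38, and called, without both libraries that stood apart (edgeR adjusted p = 0.0129). In CH+LIF HP it was at 43.5, 38.6 and 35 CPM, with a log2 fold change of 1.76 (SE 0.55, edgeR adjusted p = 0.0532). Tm7sf2, Nsdhl and Hsd17b7 were not called. Nsdhl, which removes the C4 carboxyl groups, had 0 counts in 2i+LIF LP replicate 1, which allows up to 3, and 40.9 and 29.6 CPM in its 2 replicates. Tm7sf2 stayed at or under 13.6 CPM, was at 3.16, 10.7 and 7.98 CPM in PO and at 11.9, 2.15 and 1.68 CPM in 2i+LIF LP, and without both libraries that stood apart was called lower there, at a log2 fold change of -2.24 (edgeR adjusted p = 0.0433). Hsd17b7 lay between 3.83 and 21.6 CPM.

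The 6 fatty acid enzymes gave 1 call, Fasn in 2i+LIF LP (all genes 5.06% there, and 14.4% called higher in at least 1 of the 6 comparisons with PO). As 1 gene of 6, this lies near the latter share. Fasn, fatty acid synthase, was at 139, 158.2 and 227 CPM in PO and 647, 316 and 297 CPM in 2i+LIF LP (log2 fold change 1.26 with an SE of 0.35, edgeR adjusted p = 0.0349). The highest of these was the library rich in Gm42418, and without both libraries that stood apart the log2 fold change was 0.67 and Fasn was not called there. It was also lost without PO replicate 1, PO replicate 2 or 2i+LIF LP replicate 1, and when only the groups compared were fitted. In 2i+LIF HP, at 351, 318 and 399 CPM, all libraries lay above PO, with a log2 fold change of 1.02 (SE 0.35, edgeR adjusted p = 0.0556). Acly and Acaca, which make cytosolic acetyl-CoA and malonyl-CoA, and the desaturases and elongase Scd1, Scd2 and Elovl6 were not called. Scd2 ranged from 176 to 539 CPM, both ends of that range lying in PO (539, 176 and 230 CPM). Over the 6 genes, the summed level was 1006 ± 178 CPM (SD, n = 3) in PO and had group means of 986 to 1253 CPM elsewhere, while the 18 cholesterol enzymes summed to 1011 ± 356 CPM in PO and to group means of 1412 to 1824 CPM elsewhere. The PO sums of the cholesterol enzymes were 612, 1295 and 1125 CPM, the lowest in the mitochondria-rich library. In 2i+LIF LP the sums were 1200, 1473 and 1831 CPM, the lowest in the library rich in Gm42418, so that this group overlapped PO. The other groups lay wholly above PO.

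Counts of genes whose 3 libraries all lay above the 3 PO libraries gave 6 of 30 in 2i+LIF LP (all genes 8.34%), 11 in CH+LIF LP (all genes 13.7%), 9 in LIF LP (all genes 16.4%), 9 in 2i+LIF HP (all genes 13.1%), 10 in CH+LIF HP (all genes 14.5%) and 12 in LIF HP (all genes 17.0%). In the other direction the counts were 0, 1, 0, 0, 0 and 1 of 30, the gene being Scap both times (all genes 10.4%, 13.7%, 15.3%, 12.9%, 14.1% and 15.5%). In bulk RNA, fewer cells of a type and less RNA per cell cannot be told apart. The summed stem cell markers also separated the groups, at 2596 to 3111 CPM in PO and 971 to 2286 CPM in the LP and HP libraries. By gene this was uneven: Tfcp2l1, Nanog, Esrrb and Zfp42 had their highest group mean in PO (1009, 449, 326 and 232 CPM), Pou5f1 and Dppa4 their lowest (29.2 and 118.5 CPM), and Klf4 and Tdgf1 neither. The 4 neural markers summed to 36.9 to 72.4 CPM in PO, to 110 to 253 CPM in the 3 LP groups and to 34.5 to 156.2 CPM in the HP groups, of which 2i+LIF HP and CH+LIF HP overlapped PO. Most of the sum in the LP groups was Tubb3, with group means of 104 to 141.5 CPM there and 38.3 CPM in PO. Its highest value, 220 CPM, was that of 2i+LIF LP replicate 1, which stood apart. Nes had its highest group mean in PO (16.6 CPM), while Pax6 and Sox1 had higher means in each LP group than in PO. The part of these markers in the result was not tested. Calls also depend on which libraries are fitted: when only the 2 groups compared were fitted, the counts in the 6 groups were 0, 3, 3, 1, 2 and 3 of 30 (all genes 0.0101%, 4.27%, 8.21%, 3.32%, 4.20% and 6.35%). Such fits change the filter and the scaling as well as the estimate of the spread, and the part of each was not tested.

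**Figure D3:**
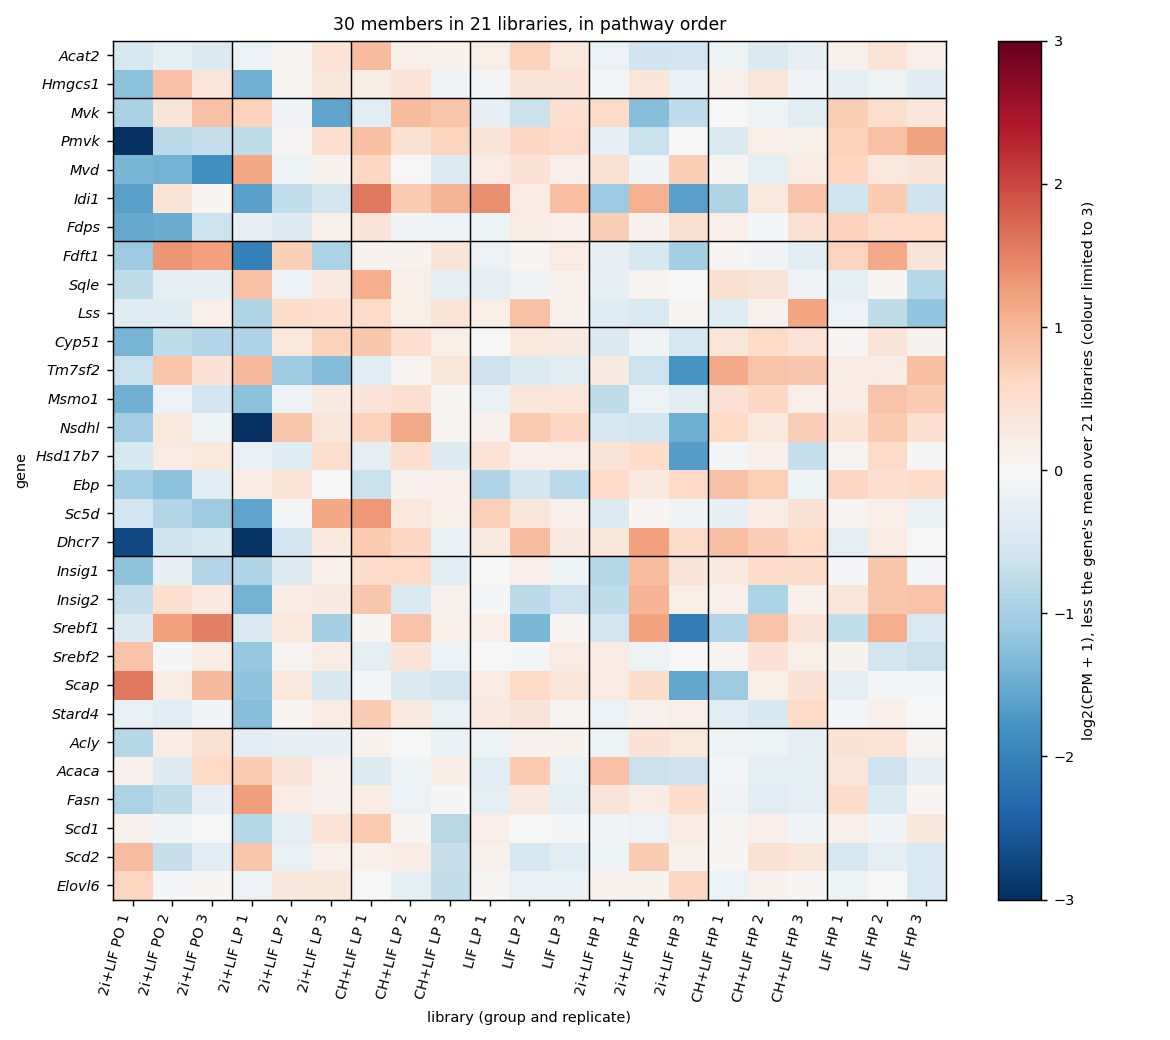
Level of the 30 genes (rows, in pathway order, with lines between steps) in the 21 libraries (columns, 3 per group), as log2(CPM + 1) less each gene's mean over the libraries; red is above and blue below that mean. The columns of 2i+LIF PO 1 and 2i+LIF LP 1 stand out in blue: on the log2 CPM scale, 12 and 13 of the 30 genes there were over 2-fold below the mean of their 2 replicates.

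The heat map shows how the libraries that stood apart touch these genes. In 2i+LIF PO replicate 1, 20 of 30 genes were below both replicates. On the log2 CPM scale, 12 were over 2-fold below the mean of the 2 replicates, among them Hmgcs1, Pmvk, Fdft1, Msmo1, Dhcr7 and Acly, while Scd2 was over 2-fold above it. In 2i+LIF LP replicate 1, 19 were below both, and 13 were over 2-fold below that mean, among them Hmgcs1, Cyp51, Nsdhl, Sc5d and Srebf2, while Mvk, Mvd, Tm7sf2 and Fasn were over 2-fold above it. By the same measure, at most 6 genes were over 2-fold off in 1 direction in any other library.

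Srebf2 and Srebf1 were not called in any comparison. Srebf2 was at 142.4, 76.3 and 91 CPM in PO, at 35.1, 82.2 and 90.6 CPM in 2i+LIF LP, at 64.4, 101 and 68.3 CPM in CH+LIF LP and at 77.1, 74.4 and 91.9 CPM in LIF LP. At HP it was at 93, 69.2 and 78.6 CPM in 2i+LIF, 81.8, 105 and 87.6 CPM in CH+LIF and 83, 53 and 48.4 CPM in LIF. No LP or HP library exceeded all PO libraries, and 7 of the 18 lay below all of them. The 142.4 CPM was that of the mitochondria-rich PO library. The values of 101, 91.9, 93 and 105 CPM in CH+LIF LP, LIF LP, 2i+LIF HP and CH+LIF HP lay above the other PO libraries. The log2 fold change of Srebf2 against PO in LIF HP was -0.74 (SE 0.35, edgeR adjusted p = 0.167). Srebf1 was near the limit of detection, with 195 counts over 21 libraries. It was at 2.11, 8.89 and 11 CPM in PO and at 2.1, 4.31 and 1.12 CPM in 2i+LIF LP, at 3.39, 6.66 and 3.8 CPM in CH+LIF LP and 3.86, 0.664 and 3.37 CPM in LIF LP. At HP it was at 1.86, 8.72 and 0 CPM in 2i+LIF, 1.3, 6.68 and 4.57 CPM in CH+LIF and 1.55, 8.01 and 2.06 CPM in LIF, so that PO overlapped every group.

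Insig1, itself a target of SREBPs and a brake on them, had its lowest group mean in PO (19.5, 39.2 and 24.7 CPM). It was at 24.5, 35.3 and 51.4 CPM in 2i+LIF LP, at 68.3, 71.4 and 36.5 CPM in CH+LIF LP and 46.3, 53.1 and 42.8 CPM in LIF LP. At HP it was at 25.1, 88.8 and 61.3 CPM in 2i+LIF, 57.1, 69.2 and 68.5 CPM in CH+LIF and 45.4, 83.8 and 45.3 CPM in LIF. LIF LP, CH+LIF HP and LIF HP lay above PO without overlap, yet no comparison was called, the nearest being CH+LIF HP with a log2 fold change of 1.21 (SE 0.41, edgeR adjusted p = 0.0794). Insig2 was at 6.33, 15.9 and 13.7 CPM in PO, 3.51, 12.9 and 13.4 CPM in 2i+LIF LP, at 19.9, 7.87 and 12.2 CPM in CH+LIF LP and 10.5, 5.98 and 6.73 CPM in LIF LP. At HP it was at 6.04, 23.4 and 12.5 CPM in 2i+LIF, 12.3, 5.25 and 12.2 CPM in CH+LIF and 14.4, 20.3 and 20.6 CPM in LIF. PO overlapped all of these groups but LIF HP against LIF LP did not overlap (log2 fold change 1.24 with an SE of 0.57, edgeR adjusted p = 0.163).

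Scap, the sterol sensor that escorts the SREBPs, had its highest mean in PO (49.6, 18.8 and 32.2 CPM), and its 18 other values lay between 4.79 and 24.6 CPM. Its log2 fold change was -1.39 in CH+LIF LP (SE 0.50, edgeR adjusted p = 0.0852) and it was not called in any group. The highest value was that of the mitochondria-rich library. Stard4, which carries sterol between membranes, was at 45.9, 42.4 and 51.1 CPM in PO and between 21.7 and 92 CPM elsewhere, with no call.

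**Figure D4:**
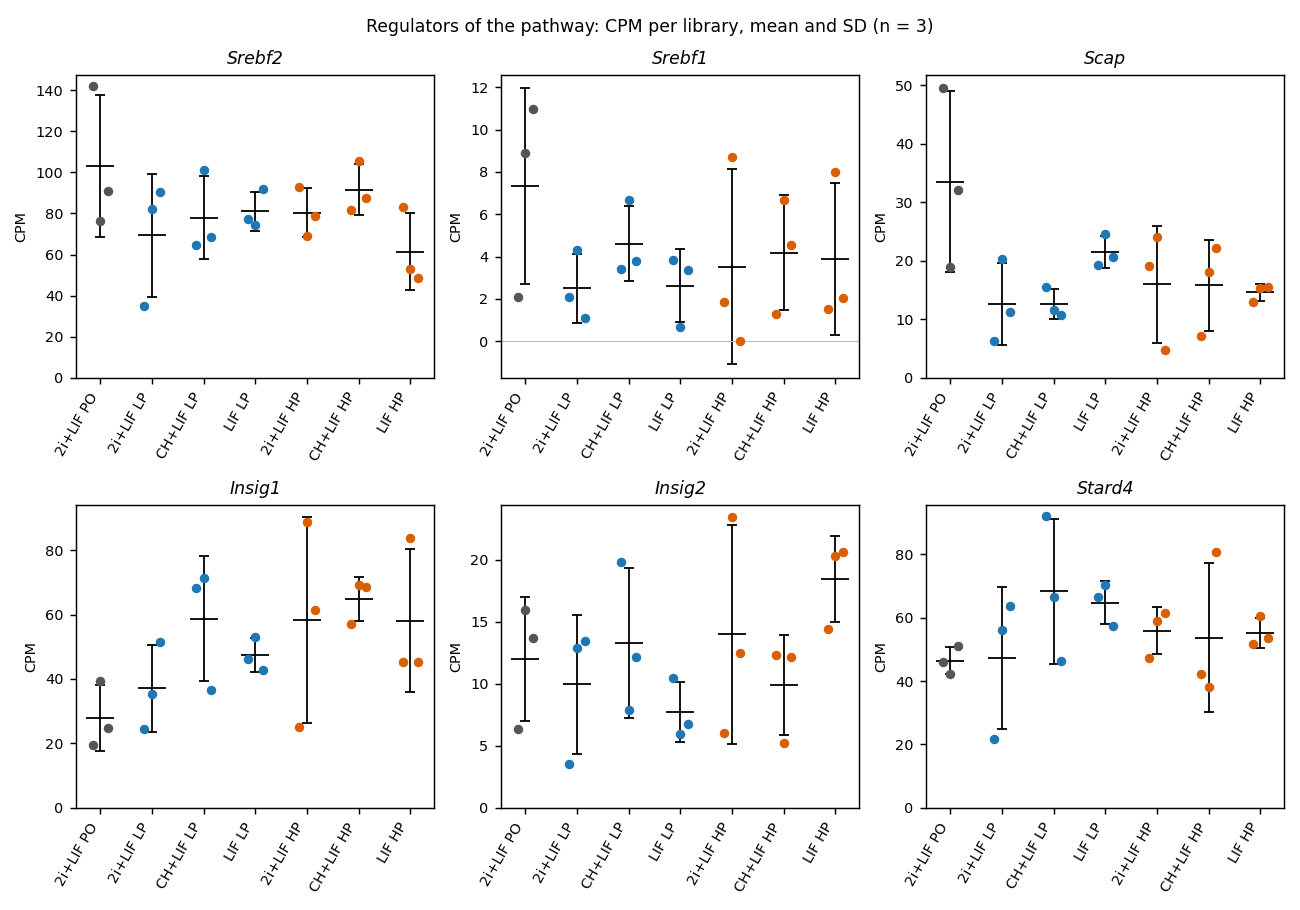
CPM (y axis, linear; scales differ) of Srebf2, Srebf1, Scap, Insig1, Insig2 and Stard4 in each library (points) of the 7 groups (x axis), with the mean and SD of 3 libraries as black bars; grey is PO, blue LP and orange HP. The grey points of Srebf2 and Scap include the highest values of the series (142.4 and 49.6 CPM), and those of Insig1 the lowest (19.5 CPM). Each of these values belongs to the mitochondria-rich library, 2i+LIF PO replicate 1.

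Among media, the next question of the design, no gene of the 30 was called. At LP, 0 of 30 were called in CH+LIF against 2i+LIF (all genes 0.0%), in LIF against CH+LIF (all genes 0.047%) and in LIF against 2i+LIF (all genes 0.489%). At HP, 0 of 30 were called in CH+LIF against 2i+LIF (all genes 2.02%), in LIF against CH+LIF (all genes 1.47%) and in LIF against 2i+LIF (all genes 3.78%). These zeros lie close to the background and say little about the list. At an unadjusted p under 0.05, edgeR gave 1, 0, 2, 4, 1 and 5 of 30 in these 6 comparisons (all genes 8.93%, 4.71%, 11.9%, 11.6%, 14.7% and 19.5%). In the same order, the members' median log2 fold changes were 0.32, -0.10, 0.23, 0.09, 0.01 and 0.07, and those of all genes 0.05, -0.03, 0.02, -0.01, 0.01 and -0.02. The members' medians became 0.06, -0.08, 0.02, 0.07, 0.01 and 0.06 without both libraries that stood apart. DESeq2 also called 0 of 30 in each, which says no more about the list than the zeros above. Other settings did give calls at HP, among them fits of only the groups compared and the fit without both libraries that stood apart. These calls are given below with the shares of all genes.

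The lowest adjusted p-values at HP were those of Msmo1, Pmvk and Fdft1 between LIF HP and 2i+LIF HP, which differ in both CH and PD. In this comparison Pmvk was at 110, 126 and 156.6 CPM against 57.2, 42.5 and 68 CPM (log2 fold change 1.23 with an SE of 0.46, edgeR adjusted p = 0.137). Msmo1 was at 318, 490 and 458 CPM against 157.1, 242 and 214 CPM (1.05, SE 0.37, edgeR adjusted p = 0.113). Fdft1 was at 32.5, 45.6 and 26.8 CPM against 16.7, 14.2 and 9.58 CPM, and Nsdhl at 30.4, 40 and 31.9 CPM against 15.8, 15.3 and 7.67 CPM. In these 4 genes the groups did not overlap, as in Acat2 and Cyp51, which makes 6 of 30 higher in LIF HP (all genes 14.6%) and 3 lower, Dhcr7, Scd2 and Elovl6 (all genes 13.5%).

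Without both libraries that stood apart, neither of which belongs to these 2 groups, standard errors were smaller and Pmvk, Msmo1, Fdft1 and Nsdhl were called between LIF HP and 2i+LIF HP, all higher in LIF HP. Their log2 fold changes were 1.21 (SE 0.28), 1.03 (SE 0.28), 1.33 (SE 0.37) and 1.34 (SE 0.36), with edgeR adjusted p of 0.00439, 0.0132, 0.0179 and 0.0125. The share of all genes called rose with them, to 13%. In that fit Nsdhl was also called higher in CH+LIF HP (35, 28.6 and 38.8 CPM) than in 2i+LIF HP, at a log2 fold change of 1.34, and Pmvk higher in LIF HP than in CH+LIF HP (50, 78.2 and 76.9 CPM), at 0.93.

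Half-widths of the 95% intervals set what these comparisons could show. The median half-width over the 30 genes was 0.85 on the log2 scale in each comparison of media, which is 1.8-fold. The interval stayed within 2-fold in both directions for 5, 13 and 8 of 30 genes in the 3 comparisons at LP, and for 10, 7 and 8 at HP. For the other 25, 17 and 22 genes at LP, and 20, 23 and 22 at HP, the interval reached a 2-fold difference in at least 1 direction. The widest intervals belonged to Idi1, whose counts were 4 in 2i+LIF LP and 31 in CH+LIF LP, a ratio of 9.04 per total count with a 95% interval of counting error from 3.2 to 35.3 and an edgeR adjusted p of 0.475.

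**Figure D5:**
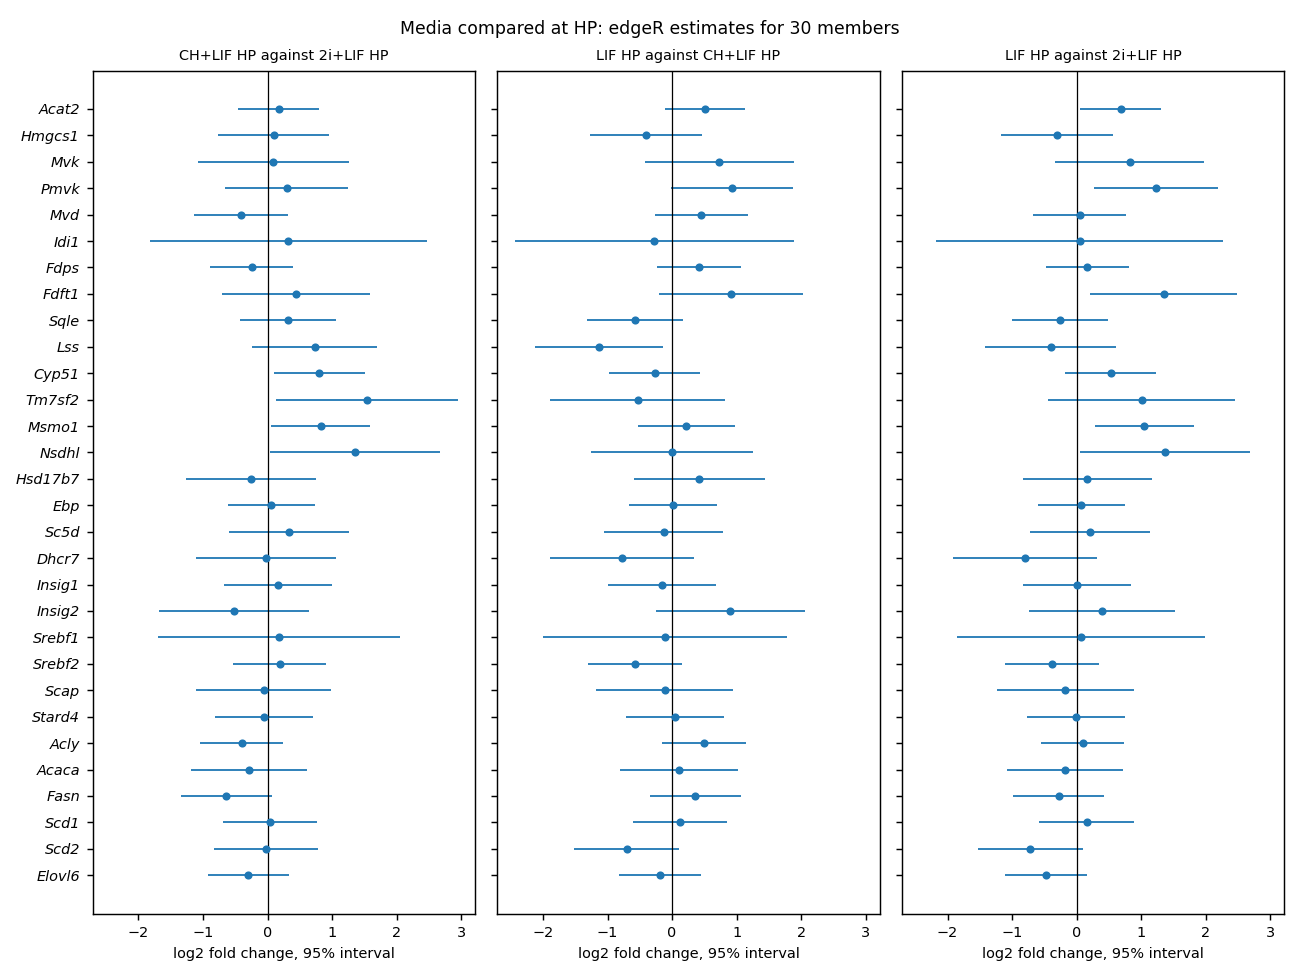
Log2 fold change (x axis, with 95% interval) of the 30 genes (y axis) between media at HP: CH+LIF against 2i+LIF, LIF against CH+LIF and LIF against 2i+LIF. Points are edgeR estimates over 3 libraries a group; most intervals cross 0, and none of the 30 genes was called, Pmvk at 1.23 and Msmo1 at 1.05 in the right panel being among the nearest.

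Between HP and LP, Ebp in LIF gave the only call. It was at 36.9, 47.8 and 39.9 CPM in LIF LP and 109, 100 and 104 CPM in LIF HP. The 2 groups lay far apart, at 41.5 ± 5.63 and 105 ± 4.45 CPM (SD, n = 3), and differed 2.52-fold (log2 fold change 1.33 with an SE of 0.34, edgeR adjusted p = 0.014). LIF LP stood lowest of the LP groups: 2i+LIF LP was at 84.2, 94.3 and 69.9 CPM and CH+LIF LP at 43.6, 76.9 and 78.2 CPM. Ebp in LIF LP was below every library of 2i+LIF LP, with a log2 fold change of -0.996 (SE 0.34, edgeR adjusted p = 0.206). At HP, the 2i+LIF libraries were at 106, 86.7 and 106 CPM and those of CH+LIF at 130, 116 and 63.2 CPM. The change between HP and LP was not shown to differ between LIF and 2i+LIF (interaction 1.07 on the log2 scale, edgeR adjusted p = 0.389).

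Read against the background, 1 call of 30 in LIF HP against LIF LP (3.33%) was below the share of all genes (9.96%, of which 5.33% higher). In 2i+LIF HP against 2i+LIF LP, 0 of 30 were called (all genes 3.67%), and in CH+LIF 0 of 30 (all genes 0.0094%); edgeR gave 1 of 30 at an unadjusted p under 0.05 in each, Dhcr7 and Acat2 (all genes 17.0% and 5.37%). In a joint test of any difference among the 6 LP and HP groups, 1 of 30 was called, Ebp with an edgeR adjusted p of 0.0427 (all genes 13.1%), and 13 of the 21 fits that left out 1 library called none of the 30 (all genes 7.92 to 19.4% over the 21 fits). The highest count in those fits was 2. DESeq2, the fit of only the groups compared and that without both libraries that stood apart called more than 1 in the joint test. Those counts are given below with the shares of all genes. None of the 30 was called for an interaction of medium with HP against LP, where all genes gave 0.0188%, 0.15% and 0.423% in the 3 interactions and edgeR gave 3 genes of the 30 at an unadjusted p under 0.05, Dhcr7, Ebp and Insig2 (all genes 6.49%, 11.0% and 11.7%). Ebp has no 50-base word in common with another gene. Its call was lost when LIF LP replicate 1, LIF LP replicate 3 or LIF HP replicate 3 was left out.

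Genes around the pathway were described from 2 lists, 18 genes of sterol transport and handling (15 tested) and 22 of fatty acid supply, activation and remodelling (21 tested). Between media, 1 of these genes was called, Lpl, lipoprotein lipase, which releases fatty acids from lipoproteins. It was at 49.8, 51.7 and 47 CPM in 2i+LIF LP against 14.9, 5.98 and 19.2 CPM in LIF LP, and at 70.2, 75.8 and 33.6 CPM in 2i+LIF HP against 17.5, 20.3 and 18.6 CPM in LIF HP. Lpl fell by 1.86 on the log2 scale at LP and by 1.68 at HP (edgeR adjusted p = 0.0227 and 0.0171). All genes gave 0.489% and 3.78% in these comparisons. Each Lpl call was kept in 22 of 27 other settings. That at LP was lost when only the groups compared were fitted and without replicate 1 or 2 of either group, among them 2i+LIF LP replicate 1 (edgeR adjusted p = 0.0573). It was made without both libraries that stood apart (edgeR adjusted p = 0.0113). That at HP was lost without 2i+LIF HP replicate 1 or 2, or without any 1 of the LIF HP libraries (edgeR adjusted p up to 0.075).

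Between HP and LP, Scarb1, the HDL receptor that takes up cholesterol esters, rose in LIF from 10.5, 11.3 and 14 CPM to 40.2, 33.9 and 39.2 CPM, a log2 fold change of 1.65 that all 27 other settings kept (edgeR adjusted p = 0.00781). In LIF LP it was also lower than PO (40.1, 34.2 and 40.4 CPM), with a log2 fold change of -1.67. Lpin1, a phosphatidate phosphatase, fell at HP by 1.77 in LIF and by 1.66 in 2i+LIF on the log2 scale (edgeR adjusted p = 0.0124 and 0.0276). The call in 2i+LIF was lost in 6 of 27 other settings, among them without 2i+LIF LP replicate 1 (log2 fold change -1.37, edgeR adjusted p = 0.0874) and without both libraries that stood apart (-1.38, edgeR adjusted p = 0.0559). The call in LIF was lost in 3 of 27, each without 1 library of the groups compared (LIF LP replicate 1, LIF HP replicate 2 or LIF HP replicate 3). Fabp5, a fatty acid carrier, rose in LIF from 15 counts at LP to 97 at HP (log2 fold change 3.00 with an SE of 0.84, edgeR adjusted p = 0.0245), a call that was lost in 4 of 27 other settings, each without 1 library of the groups compared. Npc2, which exports cholesterol from lysosomes, was called between 2i+LIF HP and 2i+LIF LP, higher at HP, at an edgeR adjusted p of 0.0499, and 7 of 27 other settings kept that call.

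Against PO, between 2 and 6 of the 15 tested sterol transport genes and between 1 and 4 of the 21 fatty acid supply genes were called in each group. As shares, in the order used above, these were 13.3%, 26.7%, 40%, 20%, 13.3% and 20% of the first list and 4.76%, 19%, 14.3%, 19%, 14.3% and 9.52% of the second, where all genes gave 5.06%, 8.31%, 12.0%, 10.6%, 5.82% and 12.3%. Vldlr, a lipoprotein receptor, had 1 count in the 3 PO libraries together and 29 to 54 counts in each other group. Per total count this was a ratio of 54 in LIF HP, with a 95% interval of counting error from 8.95 to 2200, and of 116 in LIF LP, from 19.9 to 4660. In 2i+LIF LP replicate 1, the library rich in Gm42418, Vldlr was also at 0. Lrp8, its relative, was at 4.22, 4.97 and 3.99 CPM in PO and was called in 2i+LIF LP and CH+LIF LP, at log2 fold changes of 2.09 and 2.31. It was also called in LIF LP, at 1.66 (edgeR adjusted p = 0.047), a call that 12 of 27 other settings kept. Among the other genes of both lists, Ggps1, Acadl and Scarb1 in LIF LP, Acsl3 in 2i+LIF HP and Lpin1 in LIF HP kept their calls in all 27. Ggps1, Acadl and Acsl3 were higher than PO, and Scarb1 and Lpin1 lower.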

How the data were processed

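Messenger RNA of 21 libraries was measured, 3 in each of 7 groups. The authors deposited unnormalised read counts per gene for each library; the submitters' processing notes name bcl2fastq, STAR 2.6.0a, HTSeq and mm10, while annotation, strand setting and filters are not given in the sources used here. Entries that name no gene stayed out of library sizes; of these, reads outside features made up 8.46 to 25.8% of a library and multiply mapped reads 20.8 to 35.4%.

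From the counts, edgeR 4.0.16 (R 4.3.3) was fitted with 1 coefficient per group, TMM scaling and its default filter, which left 10643 genes, and tested by quasi-likelihood with 14 residual degrees of freedom. P-values were adjusted by Benjamini-Hochberg over all genes of each comparison, with a threshold of 0.05. CPM are counts over the TMM-scaled library size. The fit was tested on simulated data. In them, changes were placed in LIF HP and sought in LIF HP against LIF LP alone, so comparisons with PO were not covered. Gene counts per library ranged from 1132126 to 3783043. Intervals on count ratios cover counting error only, at 95%.

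Any of the 30 genes could be named; Srebf1, Srebf2, Insig1, Insig2 and genes called between media or between HP and LP are given in every library, and from each of the other 2 lists at most the 3 lowest adjusted p in each direction per comparison. The members and lists were chosen with earlier results of these data known. Replicate numbers were checked as pairs: in 1 of 15 comparisons, 2i+LIF LP against 2i+LIF PO, same-numbered libraries deviated together in all 3 pairs (r = 0.397, 0.345 and 0.179). No replicate pair looked like 1 library deposited again (lowest chi-square per degree of freedom 4.82). Alternatives were DESeq2 1.42.0, its size factors, no filter, a replicate block, fits of only the groups compared, and leaving out libraries.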

Additional observations from a re-analysis of the deposited data

How the results depend on the processing

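Counts of the 30 genes called stayed within 1.5 times in 460 combinations of comparison and setting and moved further in 53, and no call changed direction. The 460 include counts of 0 that stayed at 0, as in most comparisons between media or of HP against LP. Those zeros say little about stability. The 27 single calls of the 30 genes were kept in 653 combinations of call and setting and lost in 76, and the 44 calls taken from the other 2 lists in 990 and 195. The medians of the 30 genes moved by less than the spread between replicates in all 486 combinations. That spread, an SD of 0.29 on the log2 scale, exceeded most of the medians themselves, so this does not show that they were stable. Leaving out both libraries that stood apart took the median of 2i+LIF HP relative to PO from 0.14 to -0.04. At LP, the medians relative to 2i+LIF fell from 0.32 to 0.06 for CH+LIF and from 0.23 to 0.02 for LIF. That of 2i+LIF LP relative to PO rose from 0.21 to 0.36. DESeq2 called 5 in 2i+LIF LP (all genes 9.68%), 7 in LIF LP (all genes 16.2%) and 7 in CH+LIF HP (all genes 10.2%) against PO, and 2 in the joint test of LP and HP groups (all genes 23.1%). With no filter the joint test called 0 (all genes 12.8%). With the replicate block CH+LIF HP against PO gave 7 (all genes 7.27%), and 2i+LIF LP against PO, where the numbers deviated together, gave 4 (all genes 5.77%). Fitting only the groups compared gave, against PO, 0 in 2i+LIF LP (all genes 0.0101%) and 3 in CH+LIF LP (4.27%), and at HP 1 in 2i+LIF (3.32%), 2 in CH+LIF (4.20%) and 3 in LIF (6.35%). The same fits gave 2 in LIF HP against CH+LIF HP (all genes 13.1%), 1 in LIF HP against 2i+LIF HP (7.13%) and 2 in the joint test (18.0%). Without both libraries that stood apart there were 5 in 2i+LIF LP (all genes 9.89%), 7 in LIF LP (20.8%) and 7 in CH+LIF HP (11.8%) against PO, and 5 in the joint test (24.5%). In that fit there were also 1 in CH+LIF HP (all genes 4.95%) and 4 in LIF HP (13.0%) against 2i+LIF HP, 1 in LIF HP against CH+LIF HP (6.92%) and 1 in 2i+LIF HP against 2i+LIF LP (5.72%). The cause was not tested.

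Leaving out 1 library at a time gave, against PO, 1 to 4 in 2i+LIF LP (all genes 1.71 to 11.0%), 2 to 9 in CH+LIF LP (3.46 to 12.7%) and 2 to 7 in LIF LP (5.17 to 16.8%). At HP it gave 2 to 6 in 2i+LIF (all genes 3.30 to 15.5%), 2 to 7 in CH+LIF (1.80 to 9.90%) and 4 to 6 in LIF (3.84 to 17.3%). It gave 0 to 1 in LIF HP against 2i+LIF HP (all genes 1.11 to 7.11%) and against LIF LP (3.59 to 14.6%), and 0 to 2 in the joint test (7.92 to 19.4%). The highest counts in CH+LIF LP, LIF LP, 2i+LIF HP and CH+LIF HP against PO came without 2i+LIF LP replicate 1. Depth limits Idi1 (117 counts) and Srebf1 (195 counts) most.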
